A study of Mus musculus with 24 samples.

Results

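The 10 genes described here run the G1 phase of the cell cycle. They are the D-type cyclins Ccnd1, Ccnd2 and Ccnd3, the E-type cyclins Ccne1 and Ccne2, the kinase inhibitors Cdkn1a, Cdkn1b, Cdkn1c and Cdkn2c, and the pocket protein Rb1. Members were found by matching the Ensembl mouse identifiers of the deposited gene count table to these symbols, and all 10 were among its 33846 gene rows. All 10 also passed the filter on low counts that left 16792 genes for testing, with 56 to 18920 estimated counts per library.

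Counts came from 24 polyadenylated-RNA libraries of retinal organoids, which are retina-like tissue grown from mouse embryonic stem cells. In the rotating-wall bioreactor (RWB), optic cups dissected from the organoids at day 10 were cultured under rotation and sampled at D18 (n = 2), D22 (n = 3) and D25 (n = 3). Optic cups dissected in the same way but kept in static suspension (SSCd) were sampled at D18, D22 and D28 (n = 3 each). Intact organoids in static suspension (SSCi) were sampled at D18 (n = 2), D25 (n = 2) and D32 (n = 3). Stem cells came from Nrl-GFP transgenic mice or from the clone R1, and the labels do not tie samples to a clone. Every culture began with 3000 stem cells per well and received 500 nM 9-cis retinal and 100 ng/ml IGF1. RWB and SSCd cultures also received 2% serum, B27 supplement without vitamin A and amino acids from D18, and SSCi cultures received these from D26. SSCi D18 and D25 thus shared a medium, from which that of D32 differed. For RWB and SSCd the additions began on the day of the first sample, and the labels do not say whether the D18 libraries had received them, which also bears on SSCd against SSCi at D18. At D25 culture method and medium differed together between RWB and SSCi, so they cannot be told apart there.

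D-type cyclins bind the kinases Cdk4 and Cdk6, and E-type cyclins bind Cdk2. These kinases phosphorylate Rb1, which releases the E2F transcription factors that drive entry into S phase. Cdkn1a (p21), Cdkn1b (p27) and Cdkn1c (p57) bind cyclin and kinase complexes, whereas Cdkn2c (p18) binds Cdk4 and Cdk6 themselves. In the retina Ccnd1 is the main D-type cyclin of progenitors, and mice that lack it have thin, hypocellular retinas. Cdkn1b and Cdkn1c act in retinal precursors as they leave the cycle.

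Library totals ran from 13284632 to 21604446 estimated counts. Summed over 8 retinal progenitor markers, abundance as CPM (counts scaled to library size by TMM) ranged from 204.3 to 426.1 on the last day of each culture, against 885.7 to 2423.4 at D18. Rax, an eye field and retinal progenitor gene, ranged from 46.3 to 279.0 CPM over the 24 libraries. Summed over 7 rod markers, CPM ranged from 2358.2 to 7739.4 on the last days, against 33.2 to 108.8 at D18. In bulk tissue, fewer cells of a type and less RNA per cell cannot be told apart. SSCi D18 replicate 1 stood apart with 6452.4 CPM summed over 8 mesenchyme markers, against 11.8 to 311.1 CPM in the other 23 libraries. Replicate 1 of RWB D22, RWB D25, SSCd D18 and SSCd D22 carried 8.26% to 13.1% of their counts on mitochondrially encoded genes, against 2.46% to 5.76% in the other 20 libraries.

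Upstream sequence was at hand for 5 of the 10 members, in 8 windows of 250 bases that end just before an annotated start (RefSeq, GRCm38.p6). The 4 windows printed belong to a pair of genes that fell over every culture (Ccne1, Ccnd3), the inhibitor that was higher at the end of both dissected cultures (Cdkn1a) and an inhibitor that passed the test nowhere (Cdkn1b). Capitals mark the word CCAAT or its complement ATTGG.
Ccne1, chr7:38107491-38107740, minus strand: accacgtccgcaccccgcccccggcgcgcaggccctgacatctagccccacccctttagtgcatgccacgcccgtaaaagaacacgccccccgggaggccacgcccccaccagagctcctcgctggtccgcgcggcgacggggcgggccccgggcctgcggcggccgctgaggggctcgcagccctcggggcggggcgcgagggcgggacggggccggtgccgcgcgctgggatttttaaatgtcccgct
Ccnd3, chr17:47593217-47593466, plus strand: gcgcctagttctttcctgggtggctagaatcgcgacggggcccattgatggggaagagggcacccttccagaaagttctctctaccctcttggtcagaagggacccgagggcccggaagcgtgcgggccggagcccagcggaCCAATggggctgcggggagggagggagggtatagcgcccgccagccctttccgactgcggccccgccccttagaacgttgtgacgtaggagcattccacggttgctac
Cdkn1a, chr17:29093519-29093768, plus strand: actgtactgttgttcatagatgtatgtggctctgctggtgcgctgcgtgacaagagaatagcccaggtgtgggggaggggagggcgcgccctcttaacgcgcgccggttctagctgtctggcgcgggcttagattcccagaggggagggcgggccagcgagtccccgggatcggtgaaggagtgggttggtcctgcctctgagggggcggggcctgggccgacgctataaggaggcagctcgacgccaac
Cdkn1b, chr6:134920151-134920400, plus strand: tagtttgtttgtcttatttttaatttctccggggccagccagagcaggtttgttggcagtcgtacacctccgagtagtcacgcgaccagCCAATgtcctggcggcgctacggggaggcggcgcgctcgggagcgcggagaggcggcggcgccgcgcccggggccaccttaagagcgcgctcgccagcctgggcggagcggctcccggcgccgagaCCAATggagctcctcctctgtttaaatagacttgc
G and C made up 76.0% of the Ccne1 window, 64.8% each of those of Ccnd3 and Cdkn1a, and 64.4% of that of Cdkn1b, against a median of 52.4% over 32851 windows. The 4 windows not printed held 77.2% and 42.8% (Cdkn2c), 59.6% (Ccnd3) and 54.0% (Cdkn1a). CCAAT stood once in the Ccnd3 window and at 2 places in that of Cdkn1b, in neither of the others, and in 33.8% of all windows. The E2F words TTTCCCGC, TTTGGCGC, TTTCGCGC and TTTGCCGC, searched on both strands, were in none of the 8 member windows and in 1.86% of all windows. The word TTTGAA, a letter form of the cell cycle homology region and likewise searched on both strands, was in none of the 8 and in 16.0% of all. The E2F words overlap none of the CCAAT words. Letters absent from a window say nothing of binding there.

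Ccnd1 fell in every culture and at every step, and its late levels were the lowest share of its early ones among the 10 genes. In RWB it stood at 760.5 and 770.1 CPM at D18, at 196.9, 183.2 and 248.0 CPM at D22, and at 41.9, 51.0 and 48.6 CPM at D25. The days did not overlap. At D25 it was 16.2-fold lower than at D18 (log2 fold change -4.02, SE 0.24, edgeR adjusted p = 5.85e-09). SSCd libraries had 554.7, 933.9 and 677.0 CPM at D18, 201.6, 230.5 and 268.9 CPM at D22, and 74.3, 76.7 and 46.5 CPM at D28. That fall measured -3.45 (SE 0.22, edgeR adjusted p = 3.63e-09), or 11.0-fold. In SSCi the gene stood at 887.2 and 950.4 CPM at D18, at 308.1 and 368.3 CPM at D25, and at 73.7, 71.2 and 79.8 CPM at D32. Again no day overlapped another, and D32 was lower than D18 by -3.62 (SE 0.23, edgeR adjusted p = 4.76e-09). Ranked by mean, the 9 groups fell into D18, middle and last days. Within the D18 groups RWB overlapped SSCd, RWB D22 overlapped SSCd D22, and among the last days SSCd D28 overlapped both SSCi D32 and RWB D25. All 11 tests that called Ccnd1 kept their call whichever library was left out.

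**Figure D1:**
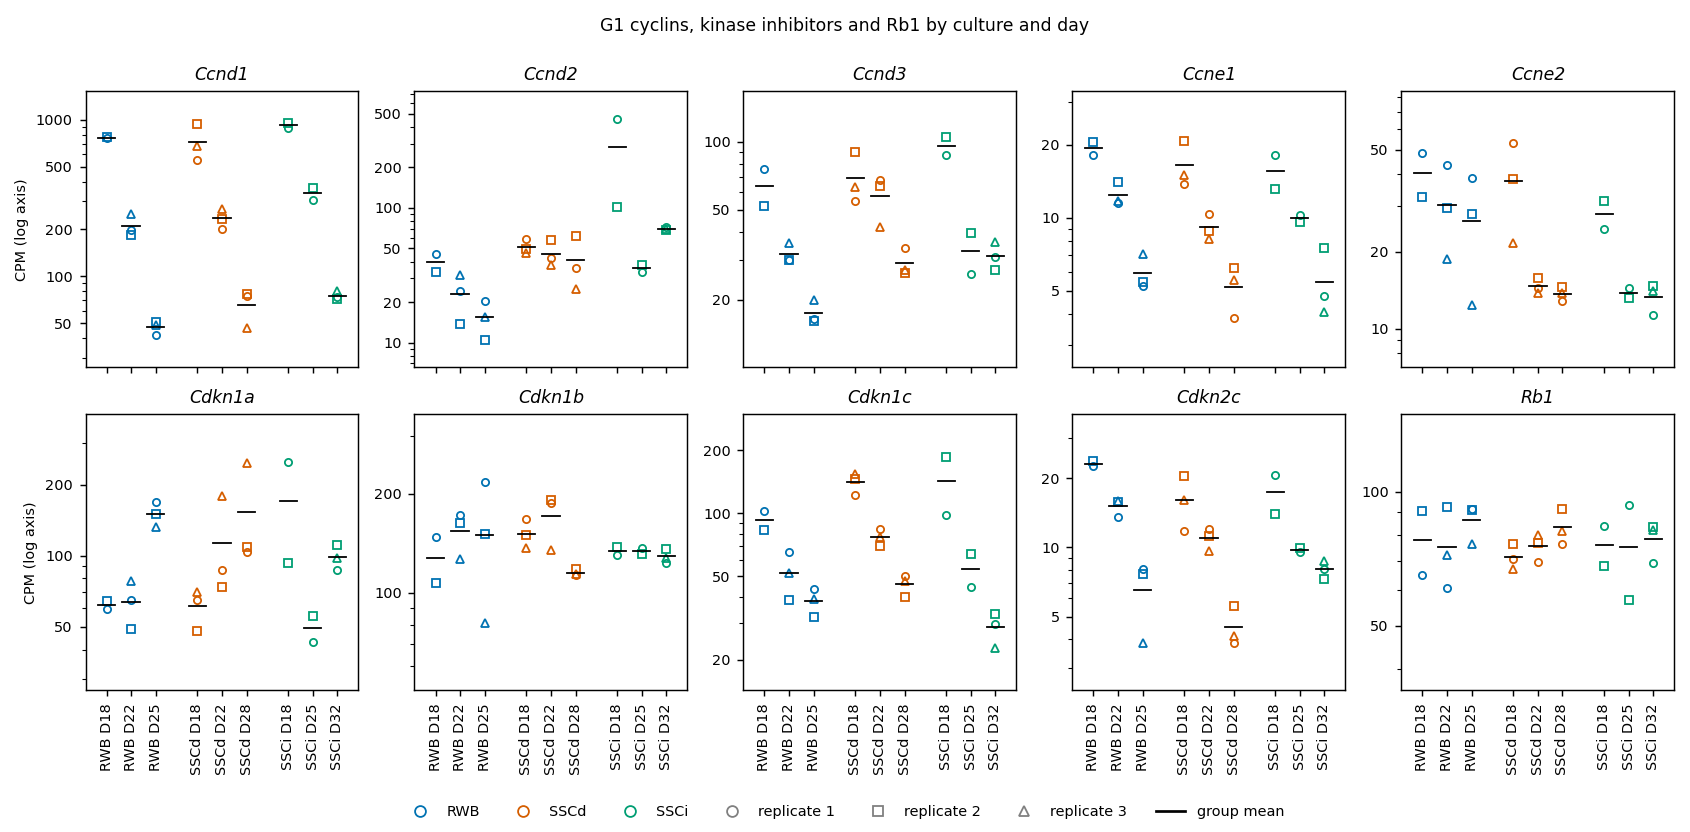
CPM of the 10 genes in each library (log axis, 1 panel per gene) by culture and day, with the 3 marker shapes showing replicates 1 to 3 and a bar at the group mean. Ccnd1 descends in steps in all 3 cultures, Cdkn1a ends high in RWB and SSCd, and Rb1 stays between 57.2 and 93.3 CPM throughout.

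Ccnd3, the D-type cyclin also used by many differentiating tissues, fell over each whole culture. Its RWB values were 75.9 and 51.9 CPM at D18, 29.9, 30.0 and 35.8 CPM at D22, and 16.5, 16.1 and 20.0 CPM at D25. The days were separate in RWB, and D25 was lower than D18 by -1.86 (SE 0.25, edgeR adjusted p = 1.26e-05). In SSCd the gene had 54.5, 90.0 and 63.3 CPM at D18, 67.8, 63.5 and 42.0 CPM at D22, and 33.8, 26.4 and 27.2 CPM at D28. Its D22 values overlapped those of D18 in SSCd, and the whole course measured -1.25 (SE 0.23, edgeR adjusted p = 0.000241). SSCi libraries held 87.6 and 104.7 CPM at D18, 26.1 and 39.4 CPM at D25, and 30.8, 27.1 and 36.0 CPM at D32. Here the whole fall lay before D25, since D25 and D32 overlapped, and D32 against D18 gave -1.62 (SE 0.25, edgeR adjusted p = 3.72e-05). None of these 3 whole-course calls was lost on leaving out a library.

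Ccnd2, the remaining D-type cyclin, was called lower over the RWB and SSCi courses and not over the SSCd course. RWB values were 45.7 and 33.7 CPM at D18, 13.8 to 31.6 CPM at D22, and 20.2, 10.5 and 15.4 CPM at D25. D25 lay below D18 without overlap, at -1.37 (SE 0.45, edgeR adjusted p = 0.0274), but that call was lost without RWB D18 replicate 1 (-1.11) or 2 (-1.58), or RWB D25 replicate 2 (-1.16) or 3 (-1.37). SSCd values spread from 25.1 to 61.4 CPM over all 9 libraries with no day apart from another, and no SSCd test called the gene. SSCi D18 held 459.9 CPM in replicate 1 and 102.3 CPM in replicate 2. At D25 SSCi had 33.5 and 37.5 CPM, and at D32 it had 72.4, 68.2 and 69.5 CPM. The D18 libraries were the highest of the culture and D32 lay above D25. D32 against D18 measured -2.01 (SE 0.45, edgeR adjusted p = 0.00142). Without SSCi D18 replicate 1, the library with the high mesenchyme markers, that value was -0.56 and was not called (edgeR adjusted p = 0.364), and fitted on SSCi D32 and D18 alone it was -1.95 (edgeR adjusted p = 0.0503). The step from D18 to D25 stayed called without that library, at -1.51 in place of -2.98. The part of the mesenchyme markers in the Ccnd2 level of that library was not tested.

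**Figure D2:**
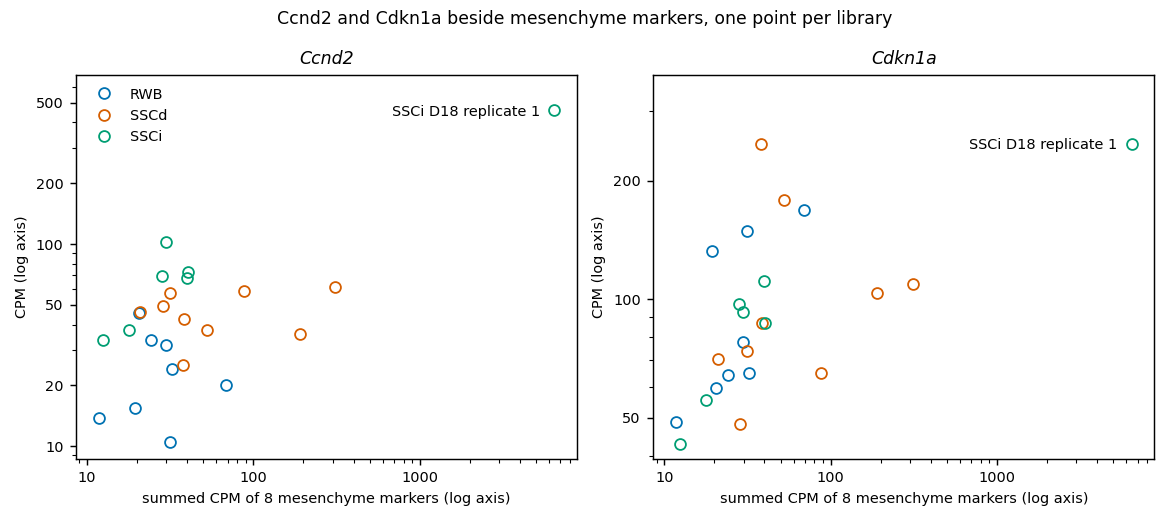
CPM of Ccnd2 (left) and Cdkn1a (right) on the vertical log axis against the summed CPM of 8 mesenchyme markers on the horizontal log axis, 1 point per library, coloured by culture. SSCi D18 replicate 1 lies alone at 6452.4 CPM of markers, at 459.9 CPM of Ccnd2, the highest of all libraries, and at 247.9 CPM of Cdkn1a, beside 247.3 CPM in SSCd D28 replicate 3.

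Scaled by transcript length and library (TPM), Ccnd1 made up a smaller share of the D-type cyclins on the last day of each culture than at D18. The total shrank as well. The summed TPM of the 3 D-type cyclins averaged 43.6 ± 15.2 at RWB D25 (SD, n = 3), against 433.9 ± 39.6 at RWB D18 (SD, n = 2). Ccnd1 made up 47.1% to 54.6% of that sum at D25, against 79.1% and 85.1% at D18. Ccnd3 made up 39.4% ± 3.53 at D25 (SD, n = 3), against 15.2% ± 3.91 at D18 (SD, n = 2). The make-up shifted in the same direction in the static cultures. SSCd D28 had 41.7% ± 2.9 Ccnd1 and 41.9% ± 7.72 Ccnd3 (SD, n = 3), against 79.0% ± 0.971 and 17.1% ± 0.426 at SSCd D18 (SD, n = 3). SSCi D32 had 39.6% ± 0.983 Ccnd1, 37.1% ± 2.3 Ccnd3 and 23.3% ± 1.33 Ccnd2 (SD, n = 3). At SSCi D25, by contrast, Ccnd1 still made up 76.2% and 79.5%, no less than the 64.2% and 75.7% at SSCi D18. The 64.2% was that of replicate 1, the library with the high mesenchyme markers. Ccnd2 made up 21.9% there, against 5.33% in replicate 2. These shares are a description, with no test.

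Of the E-type cyclins, Ccne1 fell over all 3 courses and Ccne2 was called lower over the static ones. Ccne1 stood at 18.1 and 20.6 CPM at RWB D18, at 11.5, 14.0 and 11.7 CPM at D22, and at 5.23, 5.42 and 7.1 CPM at D25. The 3 days were separate, and D25 against D18 gave -1.71 (SE 0.28, edgeR adjusted p = 9.54e-05). SSCd had 13.8, 20.8 and 15.0 CPM at D18, 10.4, 8.81 and 8.2 CPM at D22, and 3.88, 6.22 and 5.53 CPM at D28, again with no overlap. The SSCd course measured -1.67 (SE 0.26, edgeR adjusted p = 4.11e-05), and the SSCi course -1.51 (SE 0.28, edgeR adjusted p = 0.00023), with D32 at 4.08 to 7.55 CPM below D18 at 18.1 and 13.1 CPM. All 3 calls held whichever library was left out.

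Ccne2 was called lower over both static cultures and not over RWB, and this contrast between cultures was not itself tested over the whole courses. SSCd had 52.9, 38.4 and 21.6 CPM at D18, 14.4, 15.7 and 13.8 CPM at D22, and 12.8, 14.5 and 13.8 CPM at D28. Every D22 and D28 library was below every D18 library, and D28 against D18 gave -1.46 (SE 0.36, edgeR adjusted p = 0.00331). In RWB the values were 48.6 and 32.7 CPM at D18, 43.4, 29.5 and 18.7 CPM at D22, and 38.9, 28.0 and 12.4 CPM at D25. These days overlapped and the RWB course did not pass the test (-0.62, SE 0.38, edgeR adjusted p = 0.244). In RWB D22, RWB D25 and SSCd D18 the highest value belonged to replicate 1, which is also the library with the high mitochondrial share in each of them. In SSCd D22 it did not, with 14.4 CPM in the high-share replicate 1 against 15.7 CPM in replicate 2. Replicate 1 was also the higher in RWB D18, where its mitochondrial share was 5.02%, against 5.76% in replicate 2. The part of that share in the Ccne2 level was not tested. Without the 4 libraries of high mitochondrial share the RWB course was called, at -1.02 (edgeR adjusted p = 0.0353). The SSCi course was called at -1.07 (SE 0.39, edgeR adjusted p = 0.035), with 11.3 to 14.7 CPM at D32 against 24.5 and 31.6 CPM at D18. That call was lost whichever of the 5 libraries was left out, with values of -1.26 without SSCi D18 replicate 1, -0.83 without SSCi D18 replicate 2, and -0.97, -1.15 and -1.11 without SSCi D32 replicates 1, 2 and 3. The limma-voom test did not call it either (adjusted p = 0.0569).

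Cdkn1a, the inhibitor best known as a target of p53, was the only member called higher in any comparison, and it rose over both dissected cultures. RWB held 59.6 and 64.2 CPM at D18, 64.8, 48.7 and 77.8 CPM at D22, and 168.4, 149.3 and 132.6 CPM at D25. D18 and D22 overlapped, and all D25 libraries lay above both. D25 exceeded D18 by 1.28 on the log2 scale (SE 0.42, edgeR adjusted p = 0.0276), which is 2.42-fold. The call was lost without RWB D18 replicate 1 (1.24) or 2 (1.31), or RWB D25 replicate 1 (1.17), and without the 4 libraries of high mitochondrial share (1.18). SSCd had 65.0, 48.1 and 70.4 CPM at D18, 87.1, 73.8 and 178.3 CPM at D22, and 103.9, 109.1 and 247.3 CPM at D28. Replicate 3 was the highest on all 3 days in SSCd, and each later day lay above D18 without overlap. D28 against D18 gave 1.33 (SE 0.37, edgeR adjusted p = 0.0082), and 0.80 without SSCd D28 replicate 3 (edgeR adjusted p = 0.095). SSCi followed neither pattern, with 247.9 and 92.9 CPM at D18, 43.0 and 55.4 CPM at D25, and 86.9, 111.0 and 97.5 CPM at D32. Its D25 libraries were the lowest, and D32 overlapped D18. D32 against D18 was not called (-0.79, SE 0.40, edgeR adjusted p = 0.13). The D25 fall of -1.79 (SE 0.46, edgeR adjusted p = 0.00883) became -0.90 without SSCi D18 replicate 1, and it also lost its call without SSCi D25 replicate 1 (-1.53) or 2 (-1.95).

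Cdkn1b had no call in any of the 15 comparisons. Its 24 values ran from 80.9 to 217.6 CPM with a median of 136.1, and both ends of that range were RWB D25 libraries (217.6, 150.7 and 80.9 CPM). The highest was replicate 1, the RWB D25 library of high mitochondrial share (13.1%). Replicate 1, likewise of high share, was also highest in RWB D22 and SSCd D18, but not in SSCd D22 (187.8 against 191.8 CPM in replicate 2). In RWB D18, where neither library had a high share, replicate 1 was also the higher (147.5 against 106.9 CPM). The part of that share in the Cdkn1b level was not tested. In SSCi it stayed within 123.5 to 137.4 CPM across all 7 libraries and 3 days. Whole-course values were 0.23 in RWB (SE 0.27), -0.39 in SSCd (SE 0.24) and -0.06 in SSCi (SE 0.27), with edgeR adjusted p of 0.553, 0.216 and 0.892. The SSCd D28 libraries, at 112.9 to 118.2 CPM, lay below those of SSCd D18, at 136.4 to 167.2 CPM, without passing the test. These tests bear on mRNA, whereas p27 is known to be controlled largely through the stability of its protein.

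Cdkn1c fell over every course, as Ccnd1, Ccnd3 and Ccne1 did. RWB had 102.9 and 83.3 CPM at D18, 65.1, 38.4 and 51.9 CPM at D22, and 43.4, 32.0 and 39.1 CPM at D25. SSCd had 123.0, 146.4 and 154.9 CPM at D18, 84.5, 69.5 and 76.8 CPM at D22, and 50.2, 39.9 and 47.4 CPM at D28. SSCi had 98.4 and 185.6 CPM at D18, 44.7 and 63.7 CPM at D25, and 29.8, 33.0 and 22.9 CPM at D32. In both static cultures the days were separate, and in RWB D22 overlapped D25. The whole-course falls were -1.29 in RWB (SE 0.25, edgeR adjusted p = 0.000663), -1.63 in SSCd (SE 0.23, edgeR adjusted p = 2.07e-05) and -2.31 in SSCi (SE 0.26, edgeR adjusted p = 9.05e-07). All 3 calls were kept whichever library was left out.

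Cdkn2c, an INK4-type inhibitor, fell as well. At D18, D22 and D25 of RWB it averaged 23.1, 15.0 and 6.53 CPM, with D25 values of 8.09, 7.66 and 3.85 CPM below every earlier library. SSCd averaged 16.1, 10.9 and 4.49 CPM at D18, D22 and D28. SSCi averaged 17.3, 9.76 and 8.01 CPM at D18, D25 and D32. The courses measured -1.83 in RWB (SE 0.29, edgeR adjusted p = 6.8e-05), -1.84 in SSCd (SE 0.27, edgeR adjusted p = 2.28e-05) and -1.11 in SSCi (SE 0.28, edgeR adjusted p = 0.00422), the last being -0.82 and not called without SSCi D18 replicate 1. Of the 4 inhibitors, then, Cdkn1c and Cdkn2c fell over every course, Cdkn1b passed no test and Cdkn1a rose in both dissected cultures. The other INK4 genes gave no course-wide pattern. Cdkn2d was not called in any whole course, with values of 0.18, -0.13 and 0.14. Cdkn2a and Cdkn2b stood at 18.0 and 22.4 CPM in SSCi D18 replicate 1 and at no more than 1.32 and 2.85 CPM in the other 23 libraries. Both were called lower at SSCi D32 than at D18, and neither was called without that library.

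Rb1 itself changed in no comparison. Its 24 values lay between 57.2 and 93.3 CPM, and the highest library was 1.63 times the lowest, the narrowest spread of the 10 genes. Ranked by mean, each of the 9 groups overlapped the next. Whole-course values were 0.15 in RWB (SE 0.21), 0.22 in SSCd (SE 0.19) and 0.04 in SSCi (SE 0.21), with edgeR adjusted p of 0.635, 0.387 and 0.903. The other pocket proteins, which also bind E2F factors, moved in opposite directions. Rbl1 (p107), typical of cycling cells, fell to 12.9 CPM on average at RWB D25, against 55.9 CPM at RWB D18 (-2.12, SE 0.28, edgeR adjusted p = 1e-05), and by -2.70 in SSCd and -2.16 in SSCi. Rbl2 (p130), typical of quiescent cells, rose in all 3 courses. Its RWB values were 58.9, 47.2 and 58.2 CPM at D25, against 29.7 and 26.6 CPM at D18 (0.96, SE 0.21, edgeR adjusted p = 0.00142). The Rbl2 rise was 0.76 in SSCd (edgeR adjusted p = 0.0025) and 0.95 in SSCi (edgeR adjusted p = 0.00109). None of the 6 whole-course calls of Rbl1 and Rbl2 was lost on leaving out a library.

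**Figure D3:**
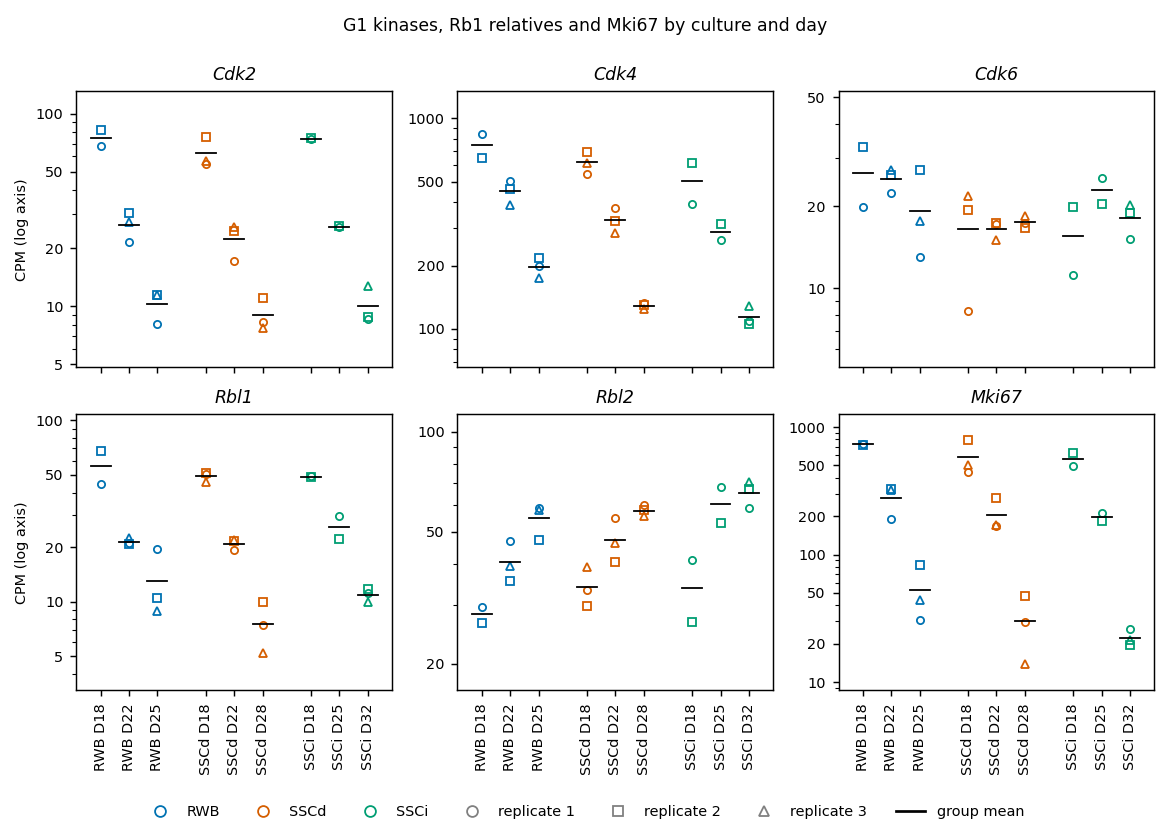
CPM (log axis) of the kinases Cdk2, Cdk4 and Cdk6, the Rb1 relatives Rbl1 and Rbl2, and the proliferation marker Mki67 in each library by culture and day, with bars at group means. Cdk2, Cdk4, Rbl1 and Mki67 descend in every culture, Rbl2 climbs, and Cdk6 stays within 8.24 to 32.9 CPM.

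Over the RWB course 7 of the 10 members were called, 6 lower and 1 higher, where 28.9% of all genes tested were called in either direction and 14% were called lower. The 7 were Ccnd1, Ccnd2, Ccnd3, Ccne1, Cdkn1c and Cdkn2c, all lower, and Cdkn1a, higher. The SSCd course likewise called 7, with 6 lower and 1 higher, against 34.6% of all genes in either direction and 17.1% lower. Here Ccne2 was called lower and Ccnd2 was not. In the SSCi course 7 members were called and all were lower, the 5 cyclins with Cdkn1c and Cdkn2c, against 36.7% of all genes in either direction and 20.5% lower. The median log2 fold change of the 10 was -1.33 in RWB, -1.35 in SSCd and -1.31 in SSCi, where that of all genes was 0.06, 0.02 and -0.05. Without SSCi D18 replicate 1 the SSCi count was 4, the calls lost being those of Ccnd2, Ccne2 and Cdkn2c.

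**Figure D4:**
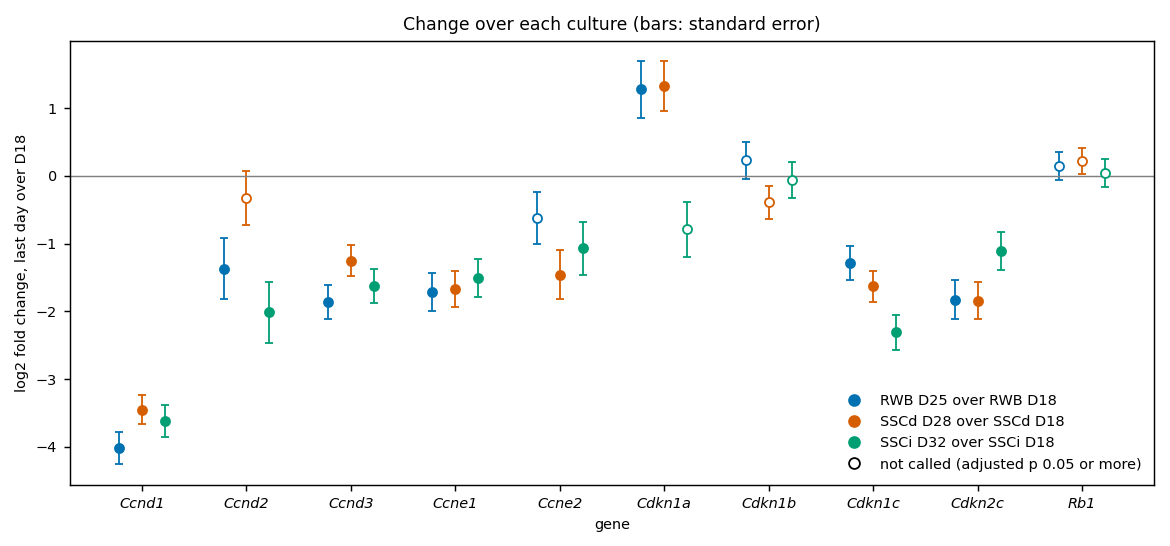
Log2 fold change of each gene from D18 to the last day of RWB (D25), SSCd (D28) and SSCi (D32), with standard errors; filled points passed the edgeR test at an adjusted p of 0.05. The cyclins, Cdkn1c and Cdkn2c lie below 0 in all 3 cultures, Cdkn1a lies above 0 in the dissected cultures, and Cdkn1b and Rb1 lie between -0.39 and 0.23.

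Between neighbouring days the counts were smaller. From D18 to D22, RWB called 3 members lower (Ccnd1 -1.87, Ccnd3 -1.0, Cdkn1c -0.85). Of all genes, 10.9% were called in either direction, and 820 of 16792 were lower. The Ccnd3 call was lost without RWB D18 replicate 1 (-0.68) or RWB D22 replicate 1 (-0.96), and the Cdkn1c call without RWB D18 replicate 1 (-0.67) or 2 (-1.01) or RWB D22 replicate 2 (-0.67) or 3 (-0.85). From D22 to D25, RWB called 4 lower (Ccnd1 -2.15, Ccnd3 -0.86, Ccne1 -1.07, Cdkn2c -1.21). Of all genes, 5.2% were called in either direction, and 542 of 16792 were lower. The Ccnd3 call held only without RWB D25 replicate 3, and without the other libraries of the pair of days ranged from -0.91 to -0.77. Ccne1 lost its call without RWB D22 replicate 2 (-0.97) or RWB D25 replicate 1 (-1.01) or 2 (-1.0). Fitted on RWB D25 and D22 alone, the Ccnd3, Ccne1 and Cdkn2c values were -0.87, -1.07 and -1.21 and none was called. Cdkn1a was not called in that step (1.23, edgeR adjusted p = 0.0562), but it was with the replicate number as a block (1.29, edgeR adjusted p = 0.0176), in the fit of RWB D25 and D22 alone (1.23, edgeR adjusted p = 0.0496) and by DESeq2 (1.24, adjusted p = 0.0145).

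In SSCd the step from D18 to D22 called 4 members lower, namely Ccnd1 (-1.63), Ccne1 (-0.86), Ccne2 (-1.36) and Cdkn1c (-0.88). Of all genes, 12.4% were called in either direction, and 862 of 16792 were lower. Ccnd1 kept its call throughout. Ccne1 lost it with no filter on low counts (-0.87) and without SSCd D18 replicate 2 (-0.66) or SSCd D22 replicate 2 (-0.85) or 3 (-0.79). Ccne2 lost it without SSCd D18 replicate 1 (-1.03) or SSCd D22 replicate 1 (-1.35) or 3 (-1.32), and Cdkn1c without SSCd D18 replicate 2 (-0.85) or 3 (-0.81) or SSCd D22 replicate 2 (-0.83). From D22 to D28 SSCd called 3 lower (Ccnd1 -1.83, Ccnd3 -0.99, Cdkn2c -1.28). Of all genes, 8.05% were called in either direction, and 848 of 16792 were lower. Without SSCd D22 replicate 2 the Ccnd3 value was -0.91 and not called. With the replicate number as a block the count was 5, through Ccne1 (-0.82, edgeR adjusted p = 0.04) and Cdkn1c (-0.75, edgeR adjusted p = 0.0473).

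In SSCi the step from D18 to D25 called 5 members lower, namely Ccnd1 (-1.44), Ccnd2 (-2.98), Ccnd3 (-1.55), Cdkn1a (-1.79) and Cdkn1c (-1.39). Of all genes, 19.8% were called in either direction, and 1838 of 16792 were lower. The Cdkn1c call was lost without SSCi D18 replicate 2 (-0.80) or SSCi D25 replicate 1 (-1.09). Fitted on SSCi D25 and D18 alone, Ccnd2 (-2.94), Cdkn1a (-1.74) and Cdkn1c (-1.33) were not called. From D25 to D32, 2 members were called lower, Ccnd1 (-2.18) and Cdkn1c (-0.92). Of all genes, 8.25% were called in either direction, and 762 of 16792 were lower. The Cdkn1c call was lost without SSCi D25 replicate 2 (-0.64) or SSCi D32 replicate 1 (-0.95) or 3 (-0.79). Ccnd1 was thus the single member called in every one of these 6 steps.

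Set against the inhibitors, the summed cyclins lost ground in each culture, and most of the cyclin sum at D18 was Ccnd1. Ccnd1 averaged 357.1, 314.5 and 440.7 TPM at D18 of RWB, SSCd and SSCi. On their last days it averaged 21.8, 34.8 and 41.8 TPM. Summed TPM of the 5 cyclins averaged 67.0 ± 14.3 at RWB D25 (SD, n = 3), against 484.9 ± 41.8 at RWB D18 (SD, n = 2), while the summed TPM of the 4 inhibitors averaged 266.8 ± 34.1 against 285.4 ± 0.704. In RWB the inhibitor sums differed by less than the SD at D25 while their make-up changed. Cdkn1a supplied 129.1 ± 25.8 TPM of the sum at RWB D25, against 56.7 ± 9.81 at D18, and Cdkn1c 49.4 ± 12.5 TPM, against 123.9 ± 7.46. The inhibitor sum averaged 318.1 ± 99.4 at SSCd D28, against 337.6 ± 72.2 at SSCd D18 (SD, n = 3 each). At SSCi D32 it averaged 262.0 ± 27.7 (SD, n = 3), below the 466.9 ± 47.6 at SSCi D18 (SD, n = 2). The log2 ratio of cyclin to inhibitor TPM was 0.76 ± 0.12, -0.48 ± 0.15 and -2.01 ± 0.19 at D18, D22 and D25 of RWB. In SSCd it was 0.34 ± 0.31, -0.68 ± 0.18 and -1.63 ± 0.60 at D18, D22 and D28. The SSCi ratio stood at 0.53 ± 0.08 on D18 and 0.06 ± 0.01 on D25, and by D32 was -1.07 ± 0.17. From first to last day the ratio changed by -2.77 (SD 0.22) in RWB, -1.97 (SD 0.67) in SSCd and -1.60 (SD 0.18) in SSCi. Without Cdkn1a among the inhibitors the SSCd change was -1.23. Its place relative to 0 differed with CPM, which is not scaled by length. From CPM, the D22 ratio was -0.04, 0.03 and 0.35 in RWB and -0.14, 0.12 and -0.11 in SSCd. The ratio is a description with no test, and it was not recomputed without Ccnd1.

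**Figure D5:**
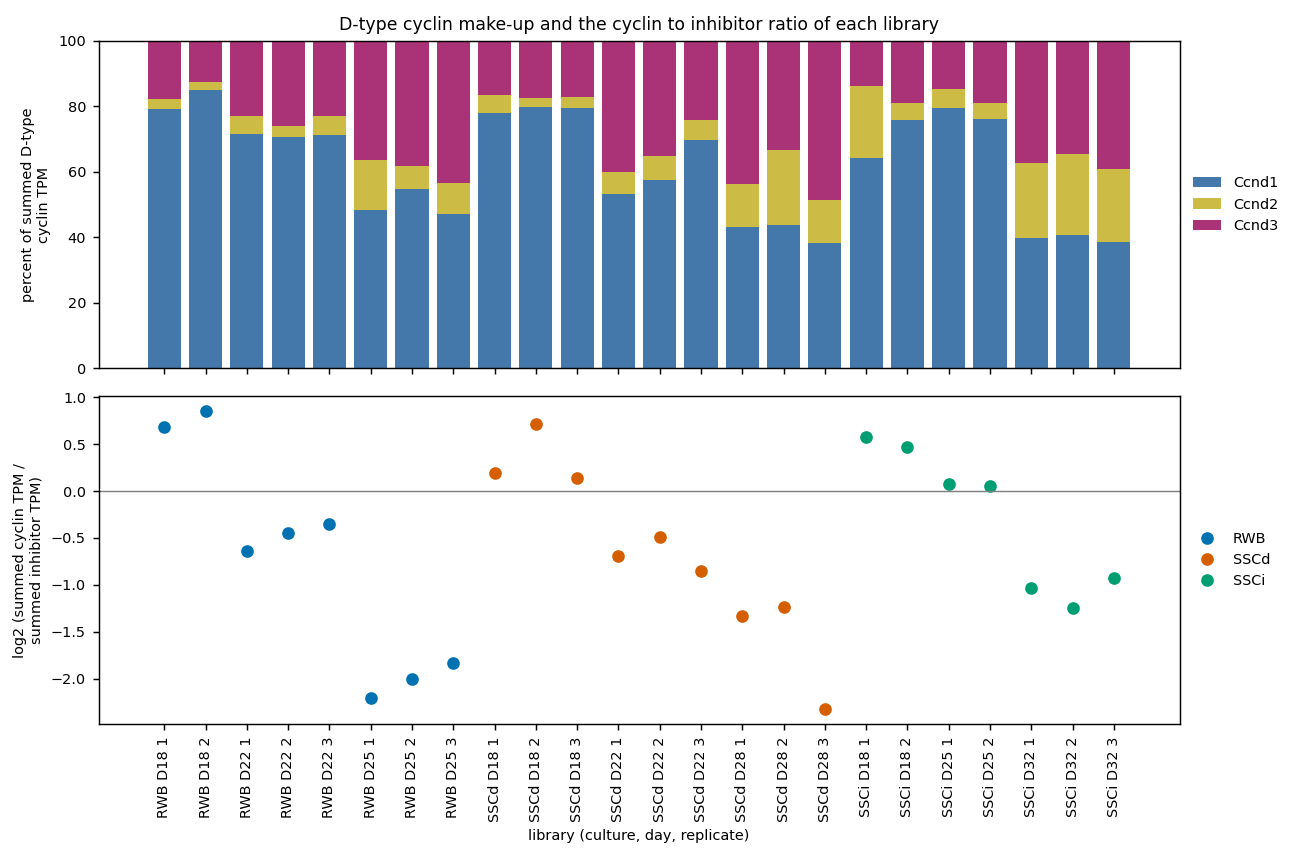
For each of the 24 libraries, the share of Ccnd1, Ccnd2 and Ccnd3 in their summed TPM (stacked bars, percent, top) and the log2 ratio of the summed TPM of the 5 cyclins to that of the 4 inhibitors (points, bottom). Ccnd1 bars shorten and the ratio drops below 0 by the last day of each culture, and both SSCi D25 libraries are still just above 0.

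Cultures were also compared on shared days. At D18 no member was called between RWB and SSCd, where 0.488% of all genes were called, and the 10 values had a median of 0.05. At D22 again none was called between RWB and SSCd, against 1.89% of all genes. Ccnd3 came nearest at D22, with 29.9, 30.0 and 35.8 CPM in RWB and 67.8, 63.5 and 42.0 CPM in SSCd (-0.86, SE 0.23, edgeR adjusted p = 0.057), and it was called at -1.04 without SSCd D22 replicate 3. The change from D18 to D22 did not differ by the test between RWB and SSCd for any member, and 0% of all genes were called by edgeR in that comparison, with 525 genes at an unadjusted p under 0.05. DESeq2 called 7 genes higher and 5 lower there, and limma-voom 0. For Ccnd1 that difference in change was -0.24 (SE 0.30).

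Dissected and intact static cultures differed at D18 in 2 members, against 3.86% of all genes. Ccnd2 had 58.6, 49.4 and 46.0 CPM in SSCd D18 and 459.9 and 102.3 CPM in SSCi D18 (-2.45, SE 0.45, edgeR adjusted p = 0.00734). Cdkn1a had 65.0, 48.1 and 70.4 CPM in SSCd D18 and 247.9 and 92.9 CPM in SSCi D18 (-1.48, SE 0.40, edgeR adjusted p = 0.0413). Neither gene overlapped between the groups. Without SSCi D18 replicate 1 neither was called, at -1.0 for Ccnd2 and -0.61 for Cdkn1a. The Ccnd2 call was also lost without SSCd D18 replicate 3 (-2.38), and the Cdkn1a call without SSCd D18 replicate 1 (-1.52), 2 (-1.33) or 3 (-1.59). Neither was called by limma-voom (-2.08 and -1.33) or in a fit of SSCd D18 and SSCi D18 alone (-2.48 and -1.50).

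At D25 RWB and SSCi differed in 3 members, against 8.68% of all genes. Ccnd1 was lower in RWB, at 41.9, 51.0 and 48.6 CPM, against 308.1 and 368.3 CPM in SSCi (-2.84, SE 0.23, edgeR adjusted p = 7.65e-07), a 7.17-fold difference. Ccnd3 was lower too, at 16.5, 16.1 and 20.0 CPM in RWB against 26.1 and 39.4 CPM in SSCi (-0.90, SE 0.25, edgeR adjusted p = 0.0307). Cdkn1a was higher, at 168.4, 149.3 and 132.6 CPM in RWB against 43.0 and 55.4 CPM in SSCi (1.61, SE 0.43, edgeR adjusted p = 0.0254). None of the 3 overlapped between the cultures, but neither did Ccnd2, Ccne1, Cdkn1c and Cdkn2c, which were not called. The Ccnd1 call held whichever library was left out. That of Ccnd3 was lost without RWB D25 replicate 1 (-0.89) or 2 (-0.84) or SSCi D25 replicate 2 (-0.56), and that of Cdkn1a without RWB D25 replicate 1 (1.48) or SSCi D25 replicate 1 (1.38) or 2 (1.81). Fitted on RWB D25 and SSCi D25 alone, neither Ccnd3 (-0.90) nor Cdkn1a (1.61) was called.

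The change from D18 to D25 itself differed between RWB and SSCi for 2 members, Ccnd1 and Cdkn1a, against 2.88% of all genes. Ccnd1 fell further in RWB, by a difference of -2.58 (SE 0.34, edgeR adjusted p = 0.000831) between changes of -4.02 in RWB and -1.44 in SSCi. Cdkn1a differed by 3.07 (SE 0.62, edgeR adjusted p = 0.0194), with a change of 1.28 in RWB and -1.79 in SSCi. Without SSCi D18 replicate 1 the Cdkn1a difference was 2.17 and not called (edgeR adjusted p = 0.163). It also lost its call without RWB D18 replicate 1 (2.98) or 2 (3.04), or SSCi D25 replicate 1 (2.80) or 2 (3.22). The Ccnd1 difference stayed called without any 1 of the 9 libraries, between -2.79 and -2.47. Fitted on the 4 groups concerned alone, it was -2.60 and missed the threshold (edgeR adjusted p = 0.0818), as did that of Cdkn1a at 3.05 (edgeR adjusted p = 0.188).

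The partners of these genes were counted in the same tests. Of the G1 kinases, Cdk2 and Cdk4 fell in every course and Cdk6 in none. Cdk2 changed by -2.86 in RWB, -2.79 in SSCd and -2.88 in SSCi, and Cdk4 by -1.92, -2.26 and -2.14. Cdk6 measured -0.45, 0.09 and 0.23. Over all genes 14%, 17.1% and 20.5% were called lower in the RWB, SSCd and SSCi courses. Among 10 E2F factors and their partners, 8 were called lower in RWB and none higher, with E2f8 (-3.71), an atypical repressor, and E2f1 (-2.96), an activator, among them. In SSCd 8 were lower and E2f3 higher (1.45), and in SSCi 6 were lower and none higher. Of 8 regulators of G1 entry such as Skp2, which targets p27 for degradation, 5, 6 and 6 were lower in RWB, SSCd and SSCi and none was higher. All 14 S phase and mitosis markers were lower in each course, with medians of -3.22, -3.33 and -3.35.

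Of 12 p53 targets other than Cdkn1a, none was called over the RWB course (median -0.09, against 0.06 over all genes). Over the SSCd course Plk2 was called higher (0.76), a call lost when replicate 2 (0.59) or 3 (0.67) of SSCd D18, or replicate 3 of SSCd D28 (0.36), was left out. Over the SSCi course 5 of the 12 were called lower, against 20.5% of all genes, with values from -1.57 to -0.81. Zmat3 kept that call whichever library was left out, while Eda2r lost it without SSCi D18 replicate 1 (-1.35). Phlda3, whose level was most like that of Cdkn1a over the 24 libraries (Pearson r = 0.87), stood at 54.4 CPM in SSCi D18 replicate 1 and at 4.58 to 24.4 CPM in the other 23 libraries. Its SSCi course measured -1.38, and 0.11 without that library, and it was not called without SSCi D32 replicate 1 (-1.35), 2 (-1.40) or 3 (-1.37). Between RWB and SSCi at D25, Ccng1 (1.67) and Eda2r (1.53), 2 of the 12, were called higher in RWB, where 8.68% of all genes were called in either direction. Without RWB D25 replicate 1 they measured 1.09 and 1.04 and neither was called, nor was either without SSCi D25 replicate 1 (1.88 and 1.55) or 2 (1.47 and 1.48). Of 4 genes of cell cycle exit (Btg1, Gadd45a, Gadd45g and Tob1), 2 were called lower and 0 higher in RWB, 2 lower and 1 higher in SSCd, and 1 lower and 1 higher in SSCi, where 28.9%, 34.6% and 36.7% of all genes were called in either direction. The lower calls of Btg1 were lost in 4 of 5 leave-outs in RWB (-0.51 to -0.31) and in 5 of 6 in SSCd (-0.43 to -0.33). The higher calls of Tob1 were lost in 3 of 6 in SSCd (0.44 to 0.66) and in 1 of 5 in SSCi (0.59 to 0.82). Gadd45a, which acts in growth arrest after DNA damage, fell in every course (-2.77 in RWB, -1.10 in SSCd, -1.34 in SSCi).

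Likeness of pattern was read from the Pearson correlation of log2 CPM over the 24 libraries with each of 10963 genes. The libraries share culture, day and depth, so the values are descriptions. Ccnd1 was most like Lmnb1 (0.98), a nuclear lamin, then Ccdc8 (0.97) and the kinase Cdk2 (0.97). Ccne1 was most like Wdhd1 (0.95), a replication factor, and Cdkn2c was most like Fam111a (0.93), with Rrm2, a subunit of ribonucleotide reductase, next at 0.91. Cdkn1c was most like Phgdh (0.92), an enzyme of serine synthesis, and Ccnd3 was most like Eif4ebp1 (0.94), an inhibitor of translation. Ccne2 was most like Hmgn3 (0.93). Weaker likeness was found for Ccnd2 (Spg20, 0.89), Cdkn1b (Mettl23, 0.85) and Rb1 (Bdp1, 0.78). Among the members Ccnd1 ran closest to Ccne1 (0.89) and Ccnd3 (0.86), and close to the inhibitors Cdkn1c (0.85) and Cdkn2c (0.84), but not to Cdkn1b (0.13).

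Transcript-level counts told which isoform carries each gene. A single transcript held 94.0% or more of the counts of Ccnd1, Ccnd2, Ccne1, Cdkn1a and Rb1 on average over the groups, for example 98.6% for Ccnd1-201. Ccnd3-205 held 84.6% and Ccne2-202 77.5%. Counts of Cdkn1b, Cdkn1c and Cdkn2c were split, with leading shares of 52.6%, 49.2% and 56.5%. Cdkn2c has 2 transcripts with separate starts. The share of the longer, Cdkn2c-202, ranged from 18.2% to 32.1% at SSCi D32, against 34.3% and 64.3% at SSCi D18, but it was 38.1% and 71.6% at SSCi D25. The last day overlapped the first in RWB and in SSCd, where D28 had 31.0% to 54.2%, against 34.6% to 60.4% at D18. Estimated counts of isoforms that share exons are uncertain, and none of these shares was tested.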

How the data were processed

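Polyadenylated RNA of 24 libraries was read as stranded pairs, per the labels' protocols. Sample titles gave groups and replicate numbers. The submitters count repeats of the experiment as biological replicates. The p-values set differences between groups against the spread between these replicates, which the main fit estimated over all 9 groups together. Names given in the submitters' processing notes include edgeR 3.13.9, limma 3.32.2, kallisto 0.42.5 and GRCm38.p5, but no role for any of them. The authors deposited estimated counts per gene and per transcript, not normalized. Gene counts were not the sums of the transcript counts. For example, Cdkn2c in SSCi D25 replicate 2 had 159 counts per gene, but 61.2 and 153.8 for its 2 transcripts. CPM came from the gene counts, and TPM and transcript shares from the transcript counts. Their table of normalized values was not used.

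Estimated counts were rounded, filtered with filterByExpr and scaled by TMM. A quasi-likelihood fit of 9 group means in edgeR 4.0.16 (R 4.3.3) gave 15 comparisons. Benjamini-Hochberg adjustment ran over all 16792 genes, with a threshold of 0.05. The fit was also run on simulated counts, drawn independently from its own dispersions. These held no outlying library, so that run does not test the calls given here. TPM came from the transcript counts and full transcript lengths in GENCODE M21 (GRCm38). Alternatives used DESeq2 1.42.0, limma-voom 3.58.1, other scalings and filters, a replicate block and left-out libraries. The alternative without the 4 libraries of high mitochondrial share was chosen after seeing the data.

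The members, lists and tests were chosen with earlier results of these data known. All 10 members are named, with up to 5 genes of each list by smallest p and the genes most like each member. E2f3 and Mki67 were named after their values were seen.

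Deviations from group means were correlated between libraries of the same number. Groups were taken as paired where they shared at least 3 numbers and every pair was over 0.1. These were RWB D25 with D22 (0.202 to 0.493), SSCd D22 with D18 (0.123 to 0.41), SSCd D28 with D22 (0.197 to 0.401) and RWB with SSCd at D22 (0.203 to 0.431). SSCi D25 with D18 (0.168) and SSCd with SSCi at D18 (0.112 to 0.226) were also over 0.1. They shared only 2 numbers and were not counted. The pairing rests on these correlations alone. The main fit did not use it, for these groups or any others. The replicate number entered only in the block among the alternatives.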

Additional observations from a re-analysis of the deposited data

Results flagged for a closer look

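A pair of members changed differently from D18 to D25 in RWB and in SSCi, by the test of that difference in edgeR. Ccnd1 differed by -2.58 on the log2 scale (adjusted p = 0.000831), with every RWB D25 library below both SSCi D25 libraries. Cdkn1a differed by 3.07 (adjusted p = 0.0194), since it was higher at D25 than at D18 in RWB and lower in SSCi. The Cdkn1a difference was 2.17 without SSCi D18 replicate 1, the library with 6452.4 CPM of mesenchyme markers, and it then missed the threshold. The Cdkn1a call was lost in 5 of the 9 fits that left out a library, and that of Ccnd1 in 0. Fitted on the groups concerned alone, neither difference was called. Serum and supplements had been added in RWB by D25 and not yet in SSCi, so culture method and medium cannot be told apart.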

How the results depend on the processing

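Of 49 called values of the members, 27 kept their call whichever library was left out, and 0 changed sign under any alternative. Among 2360 recomputed member values, 94 calls were lost and 22 gained. Fitting only the groups compared gave 2 members called for RWB D25 against D22, 2 for SSCi D25 against D18 and 4 for SSCi D32 against D25. Between cultures it gave 0 for both static cultures at D18, 1 for RWB and SSCi at D25, and 0 where the changes of RWB and SSCi were compared. With the replicate block, 5 members were called for SSCd D28 against D22, and Cdkn1a was also called for RWB D25 against D22. Between groups not counted as paired, the block added Ccne2 for SSCi D25 against D18 (-1.03) and for RWB and SSCi at D25 (1.03). It changed no other member's call. DESeq2 called 5 for SSCd D28 against D22 and 1 (Ccnd3) for RWB against SSCd at D22, and upper-quartile scaling also called 1 there. For SSCd against SSCi at D18, upper-quartile scaling and no filter gave 1 each, and limma-voom gave 0. Without the 4 libraries of high mitochondrial share the counts were 2 for RWB D25 against D22, 0 for the static cultures at D18 and 1 for RWB and SSCi at D25. The cause of these shifts was not tested.

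Leaving out each library in turn gave ranges of members called. They were 1 to 2 for RWB D22 and RWB D18, 2 to 4 for RWB D25 and RWB D22, 2 to 3 for SSCd D22 and SSCd D18, 3 to 4 for SSCi D25 and SSCi D18, 1 to 3 for SSCi D32 and SSCi D25. They were 4 to 7 for SSCi D32 and SSCi D18, 0 to 1 for RWB D22 and SSCd D22, 0 to 2 for SSCd D18 and SSCi D18, 1 to 4 for RWB D25 and SSCi D25, 1 to 3 for RWB minus SSCi change D18 to D25.

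The values of Cdkn2a and Cdkn2b in 3 comparisons, and that of Phlda3 in 1, were positive and not called without SSCi D18 replicate 1. Those of Cdkn2a and Cdkn2b, near 0 counts elsewhere, depend on the prior count. Over left-out libraries Cdkn2a ran from -5.68 to 2.39 for SSCi D25 against D18, from -6.22 to 1.84 for D32 against D18 and from -7.22 to 0.84 for SSCd against SSCi at D18. Cdkn2b ran from -6.20 to 1.18, from -4.44 to 2.48 and from -6.74 to 0.17 in the same comparisons, and Phlda3 from -2.04 to 0.11 for SSCi D32 against D18. The Cdkn2c-202 share changed over RWB by -29.3 to 2.27 percentage points, the positive value being without RWB D18 replicate 1. The cyclin to inhibitor change was -3.20 in RWB and -1.96 in SSCi with CPM not scaled by length. Without Cdkn1c it was -3.30 in RWB, -2.70 in SSCd and -2.19 in SSCi, and without Cdkn1a it was -2.14 in RWB and -1.23 in SSCd.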
